A study of Mus musculus with 14 samples.

Results

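Mitochondrial fatty acid oxidation was followed through 38 genes in cultured adult mouse neural stem and progenitor cells (NSPCs). The genes encode the carnitine shuttle, the acyl-CoA dehydrogenases, the enzymes of the later oxidation steps, the electron transfer flavoprotein, companion enzymes of branched-chain and odd-chain acid breakdown, acyl-CoA thioesterases and the enzymes that use ketone bodies. They were chosen by gene symbol. They are 38 of the 53700 genes in the deposited tables, and all 38 passed the filter on low counts in every comparison. All cells came from C57BL/6 mice, labelled as wild-type in every group, and were measured by stranded RNA sequencing of poly-A selected RNA. Quiescent cells (4 libraries) had been given BMP4, and proliferating cells (4 libraries) had been given FGF and EGF. In a second experiment all cells were kept in FGF and EGF and received an adeno-associated virus carrying either GFP (GFP control, 3 libraries) or Cre with GFP (Yme1l KO, 3 libraries). The study asked how quiescent cells differ from active ones, and how cells without Yme1l, an ATP-dependent protease of the mitochondrial inner membrane, differ from controls. The KO samples too are labelled as coming from a wild-type mouse, and their labels give neither the Yme1l allele that Cre acts on nor the share of cells infected. Nothing in the labels says whether the replicates were separate animals or cultures, so the p-values measure the spread between these libraries, which may be technical.

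In mitochondrial β-oxidation, long-chain acyl groups cross the inner membrane as carnitine esters and are shortened in repeated rounds of dehydrogenation, hydration, a further oxidation and thiolysis, each round releasing acetyl-CoA. Electrons from the dehydrogenases reach the respiratory chain through the electron transfer flavoprotein, and acetyl-CoA enters the citrate cycle. In the adult brain the pathway is known from astrocytes and from neural stem and progenitor cells, while ketone bodies serve as a fuel delivered by the blood.

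Estimated counts summed to between 6475099 and 10320736 per library. Yme1l1 stood at 127 ± 7.49 CPM (counts scaled to the library total; SD, n = 3) in GFP control and at 24.7 ± 1.61 (SD, n = 3) in Yme1l KO libraries, a log2 fold change of -2.36 (SE 0.07, adjusted p = 5.89e-11). Yme1l1 was at 3.49 ± 1.11 CPM (SD, n = 4) in proliferating cells, although these too were kept in FGF and EGF. Levels thus differed between the 2 experiments, whose tables were quantified separately: across 13561 genes, the difference in log2(CPM + 1) between GFP control and proliferating cells ran against GC content (Spearman rho -0.73, a description across genes), and across the 38 genes rho was -0.71. Of the 10 progenitor markers, Prom1 was barely detected and did not pass the filter on low counts. The other 9 passed it in both comparisons. In the KO comparison 6 of the 9 tested progenitor markers were lower and 1 higher. Hes5 is among the 6 but passed the filter on low counts only through the GFP control group. It was at 2.71 ± 0.642 CPM in GFP control and 0.434 ± 0.0958 CPM in KO libraries (SD, n = 3 each). The progenitor list summed to 3196 to 3661 TPM (counts scaled to the library total and to transcript length) in KO libraries. GFP control libraries were at 4889 to 5099 TPM, without overlap. Fabp7 and Vim made up most of these sums. Fabp7 stood at 2294 TPM in GFP control and 1242 TPM in KO, and Vim at 1828 and 1457 TPM. In quiescence 5 of 9 were lower and 2 higher (5 and 3 without quiescent replicate 2), with sums of 5461 to 6510 against 5405 to 5635 TPM. There Fabp7 was at 3106 TPM in quiescent and 2025 TPM in proliferating libraries, and Vim at 2280 and 3023 TPM. Astrocyte markers moved with quiescence: 6 of 7 tested rose and 1 fell. Their sum was 4880 to 5101 TPM in quiescent against 3104 to 3266 TPM in proliferating libraries. Aqp4 is among the 6 but passed the filter on low counts only through the quiescent group. It was at 7.85 ± 3.45 CPM in quiescent and 0.27 ± 0.207 CPM in proliferating libraries (SD, n = 4 each). In the KO comparison 3 of 6 tested astrocyte markers rose and 1 fell, with sums of 1004 to 1060 against 980 to 1004 TPM. The part of both marker lists in the results below was not tested. The microglial genes Cx3cr1 and Ptprc and the vessel genes Cldn5 and Pdgfrb were at 0 in every library, but other genes of their lists were not. Of 8 microglial genes, 2 were tested in each comparison and 1 was higher in each. That list summed to 51.6 to 58 TPM in quiescent and 48 to 55.3 TPM in proliferating libraries. It summed to 33.7 to 40.5 TPM in GFP control and 46.3 to 59.3 TPM in KO libraries. Of 8 vessel and fibroblast genes, 1 of 3 tested was higher in quiescence and none of 1 in the KO. Quiescent replicate 2 stood apart from its group: its deviation across genes fell with their GC content (Spearman rho -0.60), against 0.19 to 0.40 in the other quiescent libraries. Values without it stand beside the counts of called genes in quiescence. Because these are bulk samples, fewer cells of a type and less RNA per cell cannot be told apart.

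In quiescent cells, 18 of the 38 genes were higher than in proliferating cells, 8 were lower and 12 did not pass the test (adjusted p under 0.05). Acadsb, Oxct1, Acad11, Acad12 and Etfa led the rises, and Acadl, Cpt1a and Acaa2 led the falls. A call in either direction was also made for 65.4% of the 12245 genes tested, with 29.9% higher and 35.5% lower, so a call as such was common in this comparison. The median log2 fold change of the 38 genes was 0.19, beside -0.01 over all tested genes. Changes were small: 8 genes passed 1.5-fold (Acadsb, Oxct1, Acad11, Acad12 and Etfa upward, Acadl, Cpt1a and Acaa2 downward), and 1 of these, Acadsb, passed 2-fold. For 25 of the 38 genes the quiescent and proliferating libraries did not overlap, against 59.7% of all tested genes. The balance between rises and falls depended on scaling. With library size alone, which moved the median of all tested genes by -0.138, 13 genes rose and 13 fell, so 50% of the calls among the 38 genes were higher, beside 35.1% of the calls among all tested genes. Without quiescent replicate 2, 20 rose and 6 fell, with 76.9% of these calls higher beside 51.1% of all calls, and the libraries did not overlap for 27 of the 38 genes, against 64.5% of all tested genes.

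In Yme1l KO cells, 17 of the 38 genes were higher than in GFP control cells, 1 (Acat1) was lower and 20 did not pass the test. The rises were led by Cpt1c, Acad12, Acad11, Acadsb and Cpt1a, which are the 5 genes past 1.5-fold; none reached 2-fold. Over all 12625 genes tested, 51.6% were called, with 25.4% higher and 26.2% lower. Without KO replicate 3, Hadh was lower as well (adjusted p = 0.0246), which made 2 falls. The median log2 fold change was 0.21 for the 38 genes and 0.00 for all tested genes. The KO and GFP libraries did not overlap for 24 of the 38 genes, against 61.4% of all tested genes. Of those 24, 6 (Cpt2, Hadh, Echs1, Etfa, Acot2 and Acot9) nevertheless did not pass the test. As a reference, the mRNAs of 14 general mitochondrial proteins, among them citrate synthase and the porins, were read in both comparisons. Their median log2 fold change was -0.05 in quiescence (2 higher, 5 lower) and 0.05 without quiescent replicate 2 (6 higher, 5 lower). In the KO it was 0.03 (1 higher, 3 lower).

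**Figure D1:**
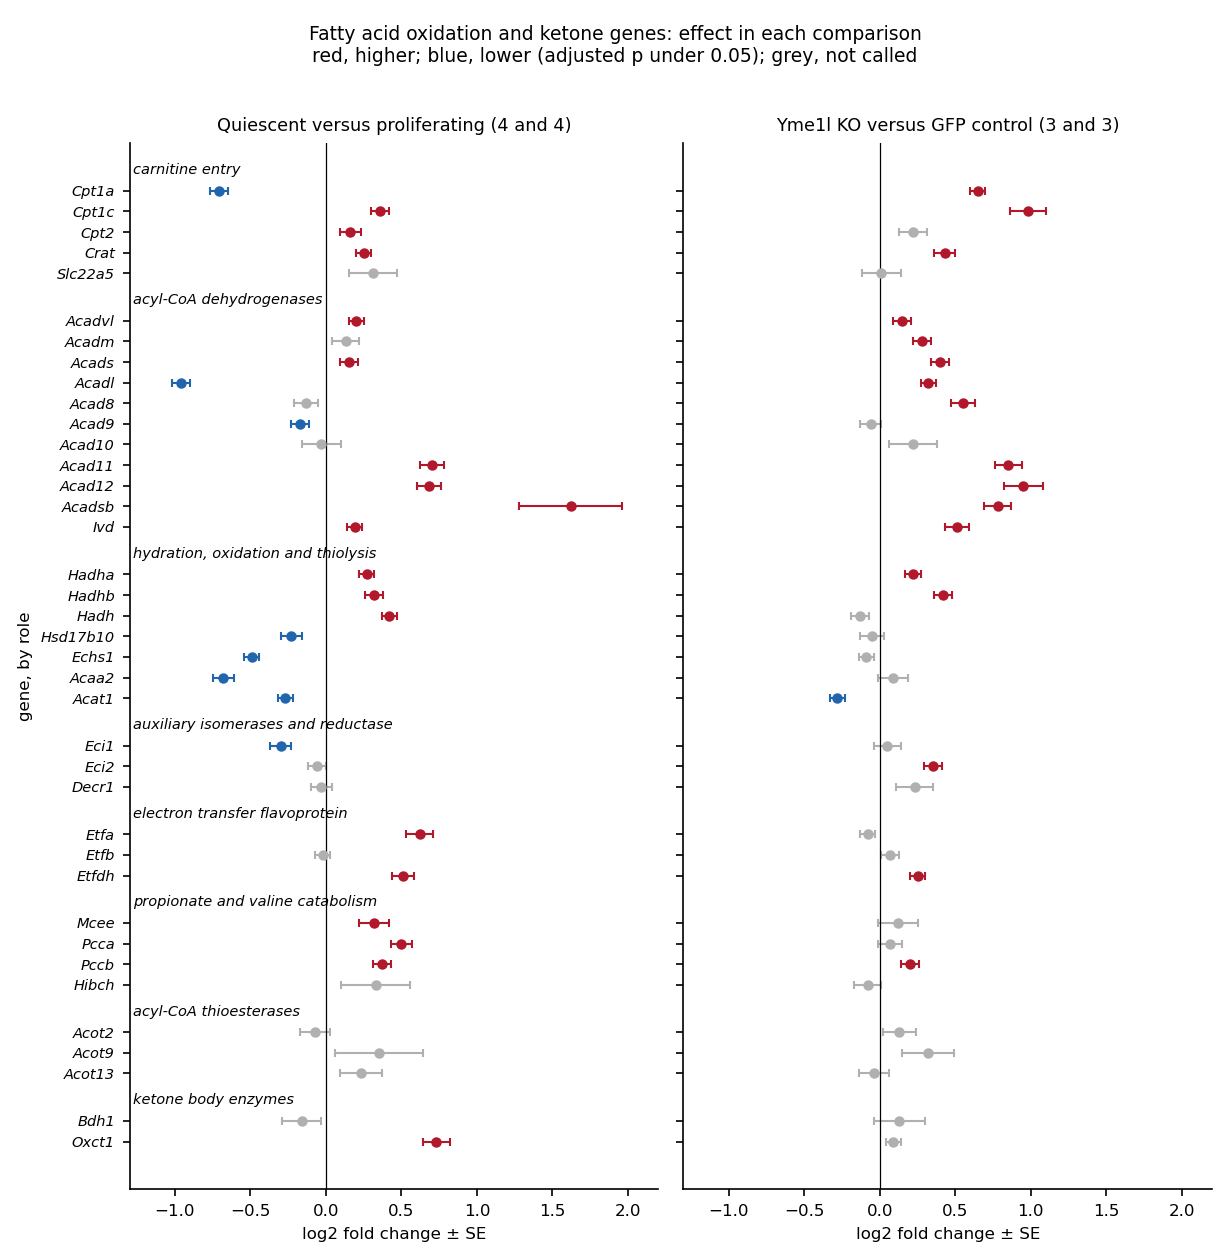
Log2 fold change with its SE for each of the 38 genes, grouped by role, in quiescent against proliferating cells (left, 4 and 4 libraries) and in Yme1l KO against GFP control cells (right, 3 and 3 libraries). Red points were higher and blue points lower at an adjusted p under 0.05, and grey points were not called; 18 red and 8 blue points stand on the left, 17 red and 1 blue on the right.

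Entry into mitochondria begins with carnitine palmitoyltransferase 1, the rate-controlling step, whose liver-type form is Cpt1a. Cpt1c is the brain member of the family. It has little enzymatic activity, and its change is not read here as a change in mitochondrial entry. Cpt1a (ENSMUSG00000024900, GRCm39 chromosome 19, 3372334 to 3435733, plus strand) stood at 75.3, 73.8, 79.1 and 73.8 CPM in the quiescent and at 127, 120, 115 and 131 CPM in the proliferating libraries. Every quiescent library lay below every proliferating one. The fall was 1.63-fold (log2 -0.71, SE 0.06, adjusted p = 1.41e-08). In the second experiment Cpt1a stood at 90.4, 91.6 and 92.7 CPM in GFP control and at 138, 146 and 149 CPM in KO libraries. Here the direction was the other way, with all KO libraries above all controls (1.57-fold higher, log2 0.65, SE 0.05, adjusted p = 7.94e-07).

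Cpt1c (ENSMUSG00000007783, GRCm39 chromosome 7, 44608796 to 44624275, minus strand) rose in both comparisons. Quiescent libraries held 187, 152, 170 and 174 CPM and proliferating libraries 131, 128, 140 and 132 CPM. The lowest of the quiescent values, in replicate 2, was still above all proliferating ones (log2 0.36, SE 0.06, adjusted p = 7.24e-05). Cpt1c was at 47, 43.3 and 37.9 CPM in GFP control and at 79.7, 73 and 100 CPM in KO libraries. The groups were well apart although KO replicate 3 was higher than the other KO libraries, and the rise was 1.97-fold (log2 0.98, SE 0.12, adjusted p = 1.94e-04). It was the largest change among the 38 genes in the KO comparison.

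Cpt1a and its family member Cpt1c moved in opposite directions in quiescence, so their promoter sequences are shown. Each is the 250 bases before the RefSeq start of the gene (build GRCm38.p6), read on the gene's own strand. Cpt1a lies at chr19:3323051-3323300 on the plus strand and Cpt1c at chr7:44974852-44975101 on the minus strand; capitals mark the motif CCAAT or, read from the other strand, ATTGG.
Cpt1a: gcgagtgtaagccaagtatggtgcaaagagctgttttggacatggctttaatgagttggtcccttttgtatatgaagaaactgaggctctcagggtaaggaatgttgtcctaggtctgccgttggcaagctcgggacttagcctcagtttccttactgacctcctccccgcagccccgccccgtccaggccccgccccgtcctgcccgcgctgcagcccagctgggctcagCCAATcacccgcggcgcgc
Cpt1c: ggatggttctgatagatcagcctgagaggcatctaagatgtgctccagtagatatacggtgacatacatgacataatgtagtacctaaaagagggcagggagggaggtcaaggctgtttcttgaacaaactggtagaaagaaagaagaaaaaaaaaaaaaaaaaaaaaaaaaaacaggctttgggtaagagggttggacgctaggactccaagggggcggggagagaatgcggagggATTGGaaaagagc
The Cpt1a stretch had a GC content of 59.6% and 14 CG pairs, and that of Cpt1c had 44% and 4. CCAAT stood 19 to 15 bases before the start in Cpt1a and, reversed, 13 to 9 bases before it in Cpt1c. The letters occur, on either strand, in 37.4% of all 32851 RefSeq windows, which run from 250 bases before to 50 bases after each start. Counted per gene, they occur in 41.1% of all genes with such a window and in 15 of the 32 members with one.

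Cpt2, the transferase on the matrix side that hands the acyl group back to CoA, changed less. It stood at 50.3, 52.1, 50.4 and 56.9 CPM in quiescent and at 46.4, 47.1, 49 and 44.8 CPM in proliferating libraries. The groups were adjacent without overlapping (log2 0.16, SE 0.07, adjusted p = 0.0384), and this call was lost with library size alone (0.03, adjusted p = 0.738) and under 7 other settings. In GFP control it stood at 22.7, 22.5 and 23 CPM and in KO at 27.3, 23.8 and 28.2 CPM, which did not pass the test (log2 0.22, SE 0.09, adjusted p = 0.0614; 0.022 without KO replicate 2). Crat, the carnitine acetyltransferase that exports short acyl groups, rose in both comparisons (log2 0.25, SE 0.05, and 0.43, SE 0.07). Slc22a5, the plasma membrane carnitine transporter, was not called in either (log2 0.31, SE 0.16, and 0.01, SE 0.13), though without quiescent replicate 2 it was higher in quiescence (adjusted p = 6.74e-04). It shares 36.5% of its 31-base stretches with the neighbouring family member Slc22a21, so its level is uncertain. Slc22a21 had 92 counts against 1090 of Slc22a5 in the quiescence comparison, and 91 against 656 in the KO comparison.

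**Figure D2:**
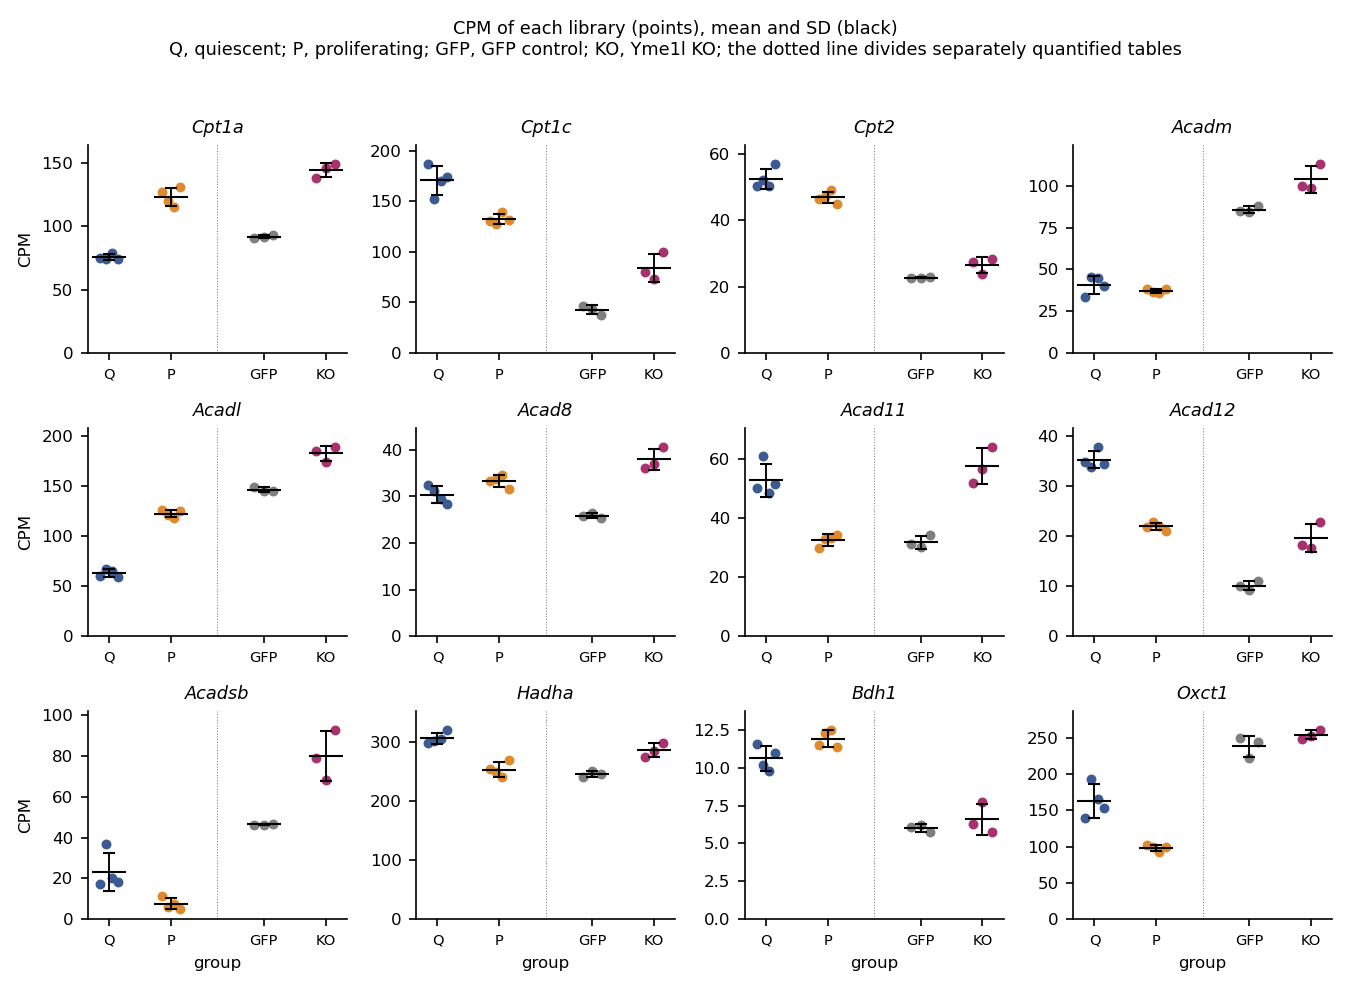
CPM of 12 genes in each of the 14 libraries (points), with the mean and SD of each group in black; each panel starts at 0 and the dotted line separates the 2 tables, which were quantified separately. Cpt1a and Acadl were lower in quiescent than in proliferating libraries and higher in KO than in GFP control, whereas Acad11, Acad12 and Acadsb were higher in both treated groups than in their controls.

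The acyl-CoA dehydrogenases catalyse the first step of each round, with forms for different chain lengths and for branched chains. In quiescence 6 of the 11 rose, 2 fell and 3 were not called (median log2 0.15), beside 29.9% higher and 35.5% lower over all tested genes. Without quiescent replicate 2, 6 rose and 1 fell. In the KO 9 of 11 rose, none fell and Acad9 and Acad10 were not called (median log2 0.40). Over all tested genes 25.4% were higher and 26.2% lower in the KO.

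Among the chain-length forms, Acadl, the long-chain enzyme, behaved unlike its relatives in quiescence. Acadl (ENSMUSG00000026003, GRCm39 chromosome 1, 66869998 to 66902436, minus strand) was at 60, 67.1, 65.3 and 59 CPM in quiescent and at 126, 121, 118 and 125 CPM in proliferating libraries. The groups were far apart, a 1.95-fold fall (log2 -0.96, SE 0.06, adjusted p = 4.93e-10). In GFP control Acadl was at 149, 145 and 145 CPM and in KO at 185, 174 and 189 CPM. All KO libraries were above all controls (log2 0.32, SE 0.05, adjusted p = 9.99e-05), and the value was 0.54 on the log2(TPM + 1) scale with limma. The very long-chain enzyme Acadvl and the short-chain enzyme Acads rose modestly in quiescence, by log2 0.20 (SE 0.05) and 0.15 (SE 0.06), and the Acads libraries overlapped between groups. Both calls were lost with library size alone. In the KO, Acads rose by 0.40 (SE 0.06, adjusted p = 1.37e-04), while the call for Acadvl (0.15, SE 0.06, adjusted p = 0.0476) was kept under 3 of 16 other settings.

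Acadm, the medium-chain enzyme, stood at 33.3, 45.2, 44.6 and 39.8 CPM in quiescent and at 38.4, 36.4, 35.7 and 38.2 CPM in proliferating libraries. The quiescent values surrounded the proliferating ones and no call was made (log2 0.13, SE 0.09, adjusted p = 0.201); without quiescent replicate 1, the lowest, the adjusted p was 0.00826. In GFP control it was at 84.8, 84.2 and 88 CPM and in KO at 99.9, 98.6 and 113 CPM. These did not overlap (log2 0.28, SE 0.06, adjusted p = 0.00172), but on the TPM scale the adjusted p was 0.114.

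Acadsb, which acts on the short branched chain left by isoleucine, had the largest change in quiescence. Acadsb (ENSMUSG00000030861, GRCm39 chromosome 7, 131012330 to 131050673, plus strand) was at 17.3, 36.8, 20.3 and 18 CPM in quiescent and at 11.4, 6.07, 7.49 and 5.16 CPM in proliferating libraries. Quiescent replicate 2 was far above the others, yet all 4 were above every proliferating library (3.08-fold, log2 1.62, SE 0.34, adjusted p = 0.00297). Leaving out single libraries gave log2 values from 1.38 to 1.89, all called. The counts behind these values ran from 45 to 315 per library. In the second experiment Acadsb was at 46.3, 46.1 and 46.8 CPM in GFP control and at 79.1, 68.2 and 92.7 CPM in KO libraries. The controls were tightly grouped and all KO libraries were higher (1.72-fold, log2 0.78, SE 0.09, adjusted p = 2.83e-05).

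Acad11 and Acad12, less studied members of the family, rose in both comparisons. Acad11 (ENSMUSG00000090150) was at 50.1, 61, 48.3 and 51.6 CPM in quiescent and at 29.7, 32.8, 33.3 and 34.3 CPM in proliferating libraries. No quiescent library came near the proliferating range (1.63-fold, log2 0.70, SE 0.08, adjusted p = 1.84e-06). In GFP control it was at 31.1, 30.1 and 34.3 CPM and in KO at 51.9, 56.7 and 64 CPM, again without overlap (1.8-fold, log2 0.85, SE 0.09, adjusted p = 4.11e-06). Acad12 (ENSMUSG00000042647) was at 34.9, 33.9, 37.8 and 34.5 CPM in quiescent and at 21.8, 22.9, 22 and 21.1 CPM in proliferating libraries. Both groups were tight and far apart (1.6-fold, log2 0.68, SE 0.08, adjusted p = 1.56e-06). It was at 10.1, 9.22 and 11 CPM in GFP control and at 18.3, 17.6 and 22.9 CPM in KO libraries, where the groups were again far apart (1.93-fold, log2 0.95, SE 0.13, adjusted p = 3.9e-05).

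Acad10, the neighbour of Acad12 on chromosome 5, was not called in either comparison (log2 -0.03, SE 0.13, and 0.22, SE 0.16). The genes share sequence: 26% of the 31-base stretches of Acad10 also occur in Acad12, so reads could be divided between them and their separate values are uncertain. The upstream stretches of Acad12 and Acadsb, the dehydrogenases with the largest rise in each comparison, are shown next (RefSeq, GRCm38.p6). Acad12 lies at chr5:121618939-121619188 on the minus strand and Acadsb at chr7:131410351-131410600 on the plus strand; capitals mark the palindromic core of the NRF1 motif.
Acad12: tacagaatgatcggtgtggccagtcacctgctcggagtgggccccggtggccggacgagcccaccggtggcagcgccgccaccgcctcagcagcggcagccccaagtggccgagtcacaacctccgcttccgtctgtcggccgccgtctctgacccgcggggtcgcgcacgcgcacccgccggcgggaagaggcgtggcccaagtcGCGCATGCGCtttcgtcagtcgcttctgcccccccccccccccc
Acadsb: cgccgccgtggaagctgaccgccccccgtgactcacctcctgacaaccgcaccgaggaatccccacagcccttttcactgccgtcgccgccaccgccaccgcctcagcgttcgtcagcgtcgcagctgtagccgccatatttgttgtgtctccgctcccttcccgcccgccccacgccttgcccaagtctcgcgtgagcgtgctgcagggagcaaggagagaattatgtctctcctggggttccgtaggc
The NRF1 core stood 44 to 35 bases before the start of Acad12 and was also found in the windows of Acad10 and Etfdh. These are 3 of 32 members, beside 1.07% of all 27025 genes with a window. The median GC content was 59.5% over member windows and 52.7% over all windows, and its part in this was not tested. The Acadsb stretch held none of the 7 motifs searched. Its GC content was 65.6% with 25 CG pairs, and that of Acad12 was 73.2% with 31. The other motifs, searched on both strands, were the PPAR direct repeat (AGGTCA repeated with 1 free base between, 0.0481% of all genes with a window, 0 members), TCAAGGTCA (ERR, 0.466%, 0 members), CCGGAAGT (ETS, 4.31%, 1 member, Cpt2), TCACGTGA (TFE E-box, 1.12%, 0 members) and TGACGTCA (CRE, 2.03%, 0 members). These matches describe letters only.

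The remaining dehydrogenases divided. Ivd, which acts on the leucine intermediate isovaleryl-CoA, rose in both comparisons (log2 0.19, SE 0.05, and 0.51, SE 0.08), and the quiescence call was lost with library size alone (adjusted p = 0.352). Acad8, the isobutyryl-CoA dehydrogenase of valine breakdown, was at 32.5, 31.2, 29.5 and 28.3 CPM in quiescent and at 33.3, 33.8, 34.5 and 31.6 CPM in proliferating libraries. The groups overlapped and no call was made (log2 -0.13, SE 0.08, adjusted p = 0.14). In GFP control Acad8 was at 25.8, 26.4 and 25.4 CPM and in KO at 36.2, 37 and 40.6 CPM, clearly separated (1.47-fold, log2 0.55, SE 0.08, adjusted p = 5.7e-05). Acad9, known also as an assembly factor of respiratory complex I, fell in quiescence (log2 -0.17, SE 0.06, adjusted p = 0.0233), a call lost under 11 of 18 other settings, and was not called in the KO.

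Of 7 genes of the later steps, 3 rose in quiescence (Hadha, Hadhb and Hadh) and 4 fell (Hsd17b10, Echs1, Acaa2 and Acat1). Without quiescent replicate 2, 3 rose and 3 fell. Over all tested genes 29.9% were higher and 35.5% lower, so the split as such was common. Hadha and Hadhb encode the α and β subunits of the membrane-bound trifunctional protein, which carries out the last 3 steps for long chains. Echs1, Hadh and Acaa2 encode the matrix enzymes that do the same steps for shorter chains. Hadha (ENSMUSG00000025745, GRCm39 chromosome 5, 30323302 to 30360160, minus strand) was at 299, 302, 305 and 321 CPM in quiescent and at 255, 249, 242 and 270 CPM in proliferating libraries. All quiescent libraries were higher (log2 0.27, SE 0.05, adjusted p = 6.71e-05). In GFP control it was at 241, 252 and 246 CPM and in KO at 276, 285 and 299 CPM, also without overlap (log2 0.22, SE 0.05, adjusted p = 0.00165). Its partner Hadhb rose with it, from 159 ± 12.5 to 199 ± 7.56 CPM in quiescence (SD, n = 4 each; log2 0.32, SE 0.06, adjusted p = 1.24e-04) and from 188 ± 5.5 to 252 ± 22.1 CPM in the KO (SD, n = 3 each; log2 0.42, SE 0.06, adjusted p = 5.09e-05). The quiescence call for Hadhb was lost when each library's trend with GC content was removed (log2 0.16, adjusted p = 0.296), whereas that for Hadha was kept (0.27, adjusted p = 2.78e-05). Hadhb also shares 61.2% of its 31-base stretches with the annotated gene Gm13910, for which no counts were available.

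Hadha and Hadhb are transcribed away from each other with 272 bases between their starts (RefSeq, GRCm38.p6, chromosome 5, 30154980 and 30155253). The 250 bases before the Hadhb start, chr5:30155003-30155252 on the plus strand, lie wholly between the starts, so this stretch is upstream of both genes.
Hadhb: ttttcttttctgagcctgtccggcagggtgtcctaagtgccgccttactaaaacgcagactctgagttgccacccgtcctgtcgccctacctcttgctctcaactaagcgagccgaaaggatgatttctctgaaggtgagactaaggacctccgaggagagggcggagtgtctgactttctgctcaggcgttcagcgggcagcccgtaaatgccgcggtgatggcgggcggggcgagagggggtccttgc
It held none of the 7 motifs, with a GC content of 58.8% and 17 CG pairs. On the TPM scale the ratio of Hadha to Hadhb was 1.2 ± 0.064 in quiescent and 1.25 ± 0.128 in proliferating libraries (SD, n = 4 each). It was 0.999 ± 0.0492 in GFP control and 0.882 ± 0.0297 in KO libraries (SD, n = 3 each), with no overlap between the last pair (0.949 to 1.05 against 0.848 to 0.901).

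Of the matrix enzymes, Hadh, the hydroxyacyl-CoA dehydrogenase for medium and short chains, rose in quiescence from 157 ± 6.23 to 209 ± 7.69 CPM (SD, n = 4 each; log2 0.42, SE 0.05, adjusted p = 1.09e-06). The hydratase Echs1 fell from 175 ± 6.82 to 125 ± 3.86 CPM (log2 -0.49, SE 0.05, adjusted p = 2.04e-07). The thiolase Acaa2 fell from 71.3 ± 3.53 to 44.6 ± 4.46 CPM (log2 -0.68, SE 0.07, adjusted p = 6.91e-07). Enzymes for consecutive steps of the same round thus moved in different directions. Hsd17b10, which serves isoleucine breakdown and is a subunit of mitochondrial RNase P, fell by 0.23 on the log2 scale (SE 0.07, adjusted p = 0.00715), with no call under DESeq2 (adjusted p = 0.0625) or without quiescent replicate 2, 3 or 4. In the KO, none of these 4 passed the test, with log2 values from -0.13 (Hadh) to 0.09 (Acaa2). Acat1, the thiolase that works on acetoacetyl-CoA in both ketone use and isoleucine breakdown, was the only one of the 38 called lower in both comparisons (log2 -0.27, SE 0.05, and -0.28, SE 0.05). It stood at 92.5 ± 4.83 against 112 ± 2.39 CPM (SD, n = 4 each) and at 137 ± 7.94 against 166 ± 3.46 CPM (SD, n = 3 each).

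Among the auxiliary enzymes that deal with unsaturated chains, Eci1 fell in quiescence (log2 -0.30, SE 0.07, adjusted p = 0.00188) and Eci2 rose in the KO (0.35, SE 0.06, adjusted p = 1.89e-04). The reductase Decr1 was called in neither comparison (-0.03, SE 0.07, and 0.23, SE 0.12), though without KO replicate 1 it was higher in the KO (adjusted p = 0.0092). Of the electron transfer flavoprotein, the α subunit gene Etfa rose in quiescence from 35.7 ± 3.55 to 54.6 ± 6.92 CPM (SD, n = 4 each; 1.54-fold, log2 0.62, SE 0.09, adjusted p = 3.32e-05). The β subunit gene Etfb did not pass the test there (log2 -0.02, SE 0.05, adjusted p = 0.805). The TPM ratio of Etfa to Etfb was 0.241 to 0.344 in quiescent against 0.162 to 0.218 in proliferating libraries. In the second experiment it went the other way, at 0.763 to 0.788 in KO against 0.86 to 0.903 in GFP control libraries. Etfb shares 62% of its 31-base stretches with the annotated gene Gm45233, for which no counts were available, so the level of Etfb is uncertain. Etfdh, the dehydrogenase that passes the electrons to ubiquinone, rose in both comparisons (0.51, SE 0.07, and 0.25, SE 0.05).

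Of the 4 enzymes of propionate and valine breakdown, 3 rose in quiescence and none fell, with or without quiescent replicate 2. Over all tested genes 29.9% were higher and 35.5% lower in quiescence, and 25.4% and 26.2% in the KO. Pcca and Pccb, the subunits of propionyl-CoA carboxylase, rose by log2 0.50 (SE 0.07) and 0.37 (SE 0.06), and the epimerase Mcee by 0.32 (SE 0.10). The call for Mcee was lost with library size alone (adjusted p = 0.125) and with the replicate block (0.0654). Hibch, the valine-pathway hydrolase, was not called (0.33, SE 0.23, adjusted p = 0.229). In the KO 1 of the 4, Pccb, rose (0.20, SE 0.06, adjusted p = 0.0136), and this call was lost without GFP control replicate 1 (adjusted p = 0.0558) or replicate 2 (0.0533) and under DESeq2 (0.0799). Pcca was at log2 0.07 (SE 0.08) on counts and at -0.21 on the log2(TPM + 1) scale, where GFP control replicate 2 held 50.7 TPM beside 31 and 35.7 TPM in the others; neither value was called. The thioesterases Acot2, Acot9 and Acot13, which release fatty acids from CoA, were called in neither comparison; without quiescent replicate 2, Acot13 was higher in quiescence (adjusted p = 0.0185). Acot2 shares 29.9% of its 31-base stretches with Acot1, which had 5597 counts against its own 1437 in the quiescence table.

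The ketone body genes behaved differently from each other. Oxct1, which activates acetoacetate and so commits ketone bodies to oxidation, was at 140, 194, 166 and 153 CPM in quiescent and at 102, 99.6, 92.8 and 99.6 CPM in proliferating libraries. All quiescent libraries were higher (1.66-fold, log2 0.73, SE 0.09, adjusted p = 1.33e-05). In GFP control it was at 250, 222 and 244 CPM and in KO at 249, 253 and 261 CPM, which overlapped and were not called (log2 0.09, SE 0.05, adjusted p = 0.167). Once each library's GC trend had been taken out, that value was 0.15 and was called (adjusted p = 0.033).

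Bdh1, the 3-hydroxybutyrate dehydrogenase, was lowly expressed. It was at 11.6, 10.2, 9.76 and 11 CPM in quiescent and at 11.5, 12.3, 12.5 and 11.4 CPM in proliferating libraries, with overlap and no call (log2 -0.16, SE 0.13, adjusted p = 0.275). In GFP control it was at 6.11, 6.22 and 5.74 CPM and in KO at 6.27, 7.74 and 5.77 CPM, again overlapping (log2 0.13, SE 0.17, adjusted p = 0.536). On the TPM scale the direction in the KO turned: 15.1, 11 and 9.46 TPM in GFP control against 9.21, 6.9 and 4.82 TPM in KO libraries, a difference of -0.70 on the log2(TPM + 1) scale (limma, adjusted p = 0.0436). TPM depends on which transcript the counts were assigned to, and for Bdh1 that assignment moved. Bdh1-201 took 65%, 52.2% and 0% of the counts in the GFP control libraries and 0% in each KO library, on totals of 51 to 72 counts a library. The TPM fall at Bdh1 therefore stood beside a change in assigned transcripts and no change called in counts.

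**Figure D3:**
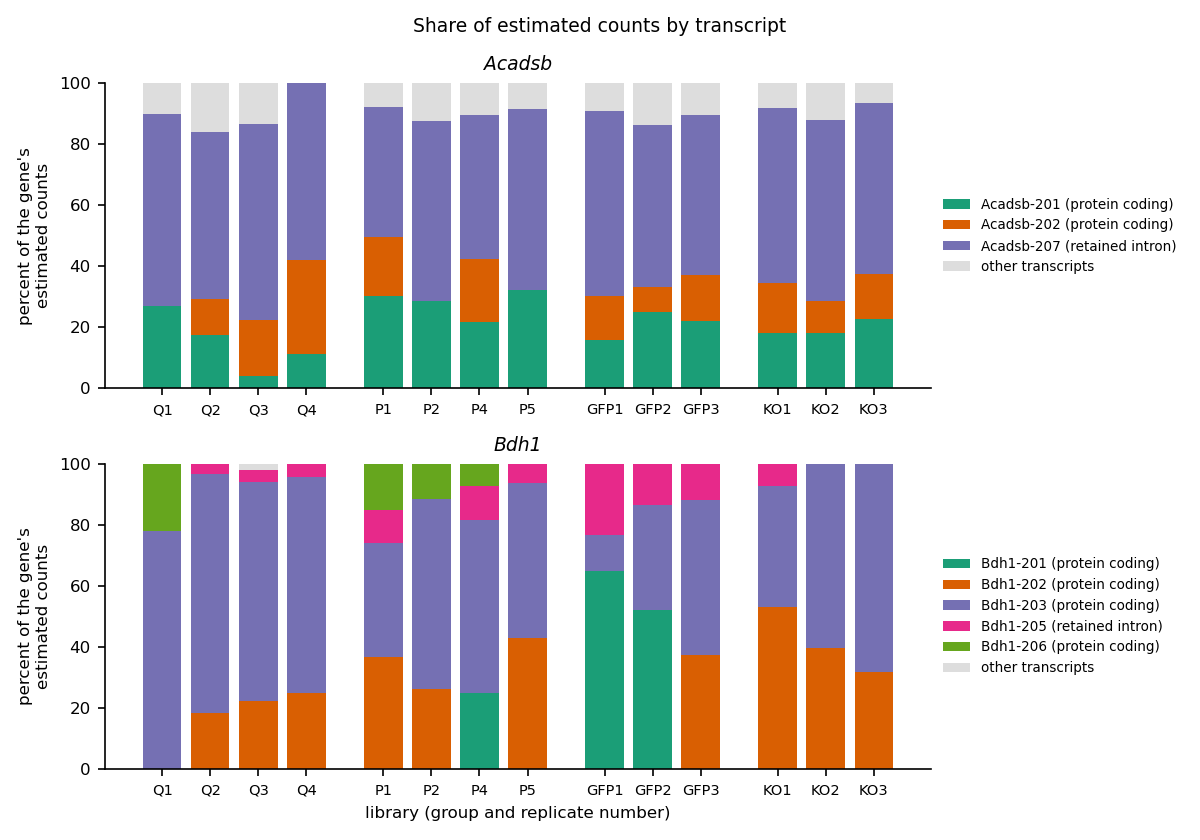
Share of the estimated counts of Acadsb (top) and Bdh1 (bottom) assigned to each transcript in each library; Q, quiescent; P, proliferating; GFP, GFP control; KO, Yme1l KO. Acadsb-207, annotated as a retained intron, took 42.4% to 64.4% in every library, and Bdh1-201 appeared in 2 GFP control libraries and 1 proliferating library.

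For most of the 38 genes the counts were carried by protein-coding transcripts, with 2 exceptions, judged by transcript types in the GENCODE vM21 annotation, where all 238 transcripts of these genes were matched by identifier. In Acadsb the retained-intron transcript Acadsb-207 took 60% ± 4.45 of the counts in quiescent and 51.9% ± 8.49 in proliferating libraries (SD, n = 4 each). The protein-coding transcripts of Acadsb together took 30.2% ± 8.39 and 38.2% ± 9.61, with overlapping ranges (22.4% to 42% and 28.5% to 49.6%). In Hadha the non-coding processed transcript Hadha-201 took between 58.9% and 67.4% in every library, and the coding transcript Hadha-205 between 30.9% and 37.2%. These shares are estimates of the quantification and were not tested.

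Comparing the 2 effects directly, 12 genes were called higher in both comparisons (Cpt1c, Crat, Acadvl, Acads, Acad11, Acad12, Acadsb, Ivd, Hadha, Hadhb, Etfdh and Pccb). Over all 11477 genes tested in both, 14.8% had this pattern. Acat1 was lower in both, a pattern of 18.4% of genes. Cpt1a and Acadl were lower in quiescence and higher in the KO, a pattern of 3.91% of genes. None was higher in quiescence and lower in the KO (2.49% of genes), 11 were called in quiescence alone, 3 (Acadm, Acad8 and Eci2) in the KO alone, and 9 in neither. Without quiescent replicate 2 the same 12 genes were higher in both (16.1% of genes), Acat1 was still the one lower in both (17.8%), and Cpt1a and Acadl the ones lower in quiescence and higher in the KO (3.32%).

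The difference between the effects, KO effect minus quiescence effect, was tested in a joint fit of all 14 libraries, which compares the differences within each table and not the levels between them; the part of the shift between the tables in it was not tested. It was called for 13 of the 38 genes, 8 with a higher and 5 with a lower KO effect, while 38.9% of 13580 tested genes were called, 21% higher and 18% lower. Cpt1a had the largest difference (log2 1.31, SE 0.09, adjusted p = 1.26e-10), followed by Acadl (1.23, SE 0.08, adjusted p = 1.27e-10), Acaa2 (0.72, SE 0.14) and Acad8 (0.64, SE 0.11). Cpt1c (0.57), Echs1 (0.35), Eci2 (0.35) and Ivd (0.27) completed the 8, and the call for Ivd (adjusted p = 0.0494) was lost under 15 of 20 other settings. The 5 genes with a higher quiescence effect were Etfa (-0.74, SE 0.12, adjusted p = 4.15e-05), Oxct1 (-0.69, SE 0.11, adjusted p = 2.37e-05), Hadh (-0.60, SE 0.08, adjusted p = 7.13e-06), Pcca (-0.48, SE 0.11) and Etfdh (-0.31, SE 0.09). The call for Etfdh was lost with library size alone (adjusted p = 0.193), and with the replicate block those for Etfdh (0.0816) and Eci2 (0.0633) were lost. The split was 13 and 4 with library size alone, which moved the median of all genes by 0.150; 76.5% of the calls among the 38 genes were then higher, beside 70.7% of all calls. It was 7 and 7 with RLE size factors, which moved that median by -0.102, so 50% of these calls were higher beside 41.9% of all calls. The split was also 7 and 7 with the GC trend removed (50.4% of all calls higher) and without quiescent replicate 2 (54%). For the 25 other genes no difference was called, which does not show equal effects. Acadsb is one of them: its quiescence effect had an SE of 0.34.

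**Figure D4:**
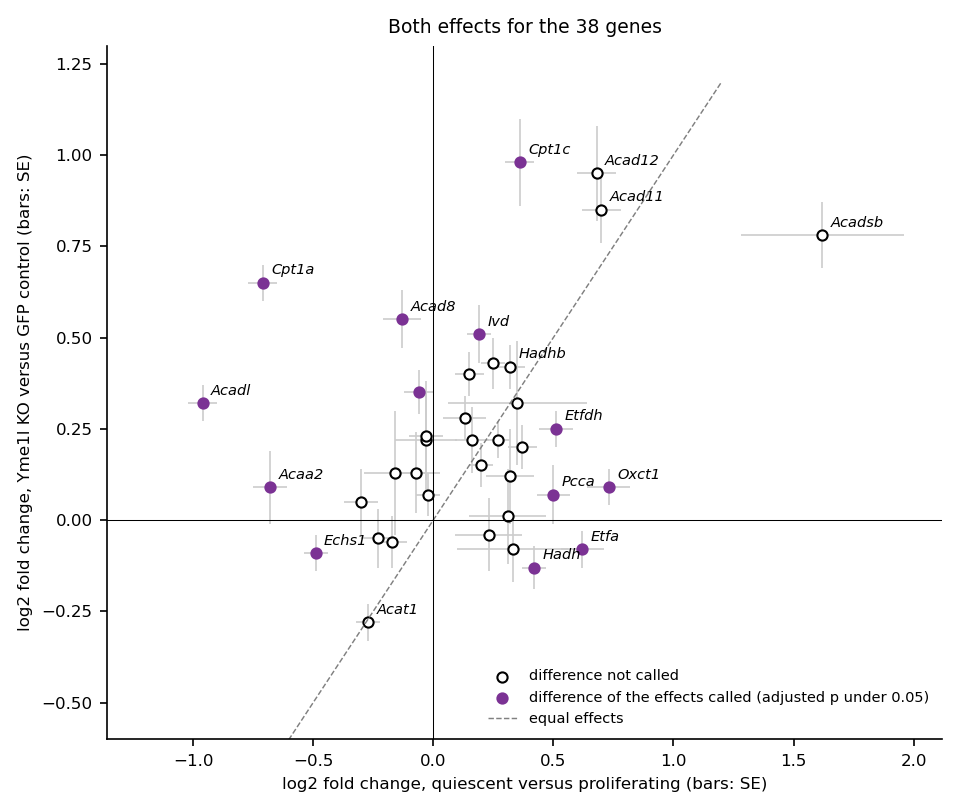
Log2 fold change in quiescence (x axis) against that in the Yme1l KO (y axis) for the 38 genes, each with its SE; the dashed line marks equal effects, and filled points are the 13 genes whose difference was called. Cpt1a and Acadl lie at the upper left, Acad11, Acad12 and Acadsb at the upper right, and Etfa, Oxct1 and Hadh to the right near a KO effect of 0.

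Per length, the 38 genes spanned a wide range of levels in the deposited TPM. The 2 tables were quantified separately, so levels are ordered within each. In proliferating cells Etfb was highest (262 ± 5.14 TPM), then Echs1 (210 ± 5.73) and Hadha (180 ± 15.3; SD, n = 4 each). Hadha and the next gene in that order, Hadh (161 ± 7.73), overlapped. Acot9 was lowest (2.6 ± 1.03). In quiescent cells Etfb stayed first (266 ± 13.1), but Hadha (219 ± 9.2) and Hadh (218 ± 4.16), which overlapped with each other, now stood above Echs1 (151 ± 2.04). In GFP control Hadhb (179 ± 5.14), Hadha (179 ± 7.43) and Etfb (168 ± 9.23) led, each overlapping with the next (SD, n = 3 each). In KO cells Hadhb (245 ± 23.5), Acadl (220 ± 12.4) and Hadha (217 ± 25.7) led, with Hadha overlapping the other two, and Acad10 was lowest (3.4 ± 0.193).

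**Figure D5:**
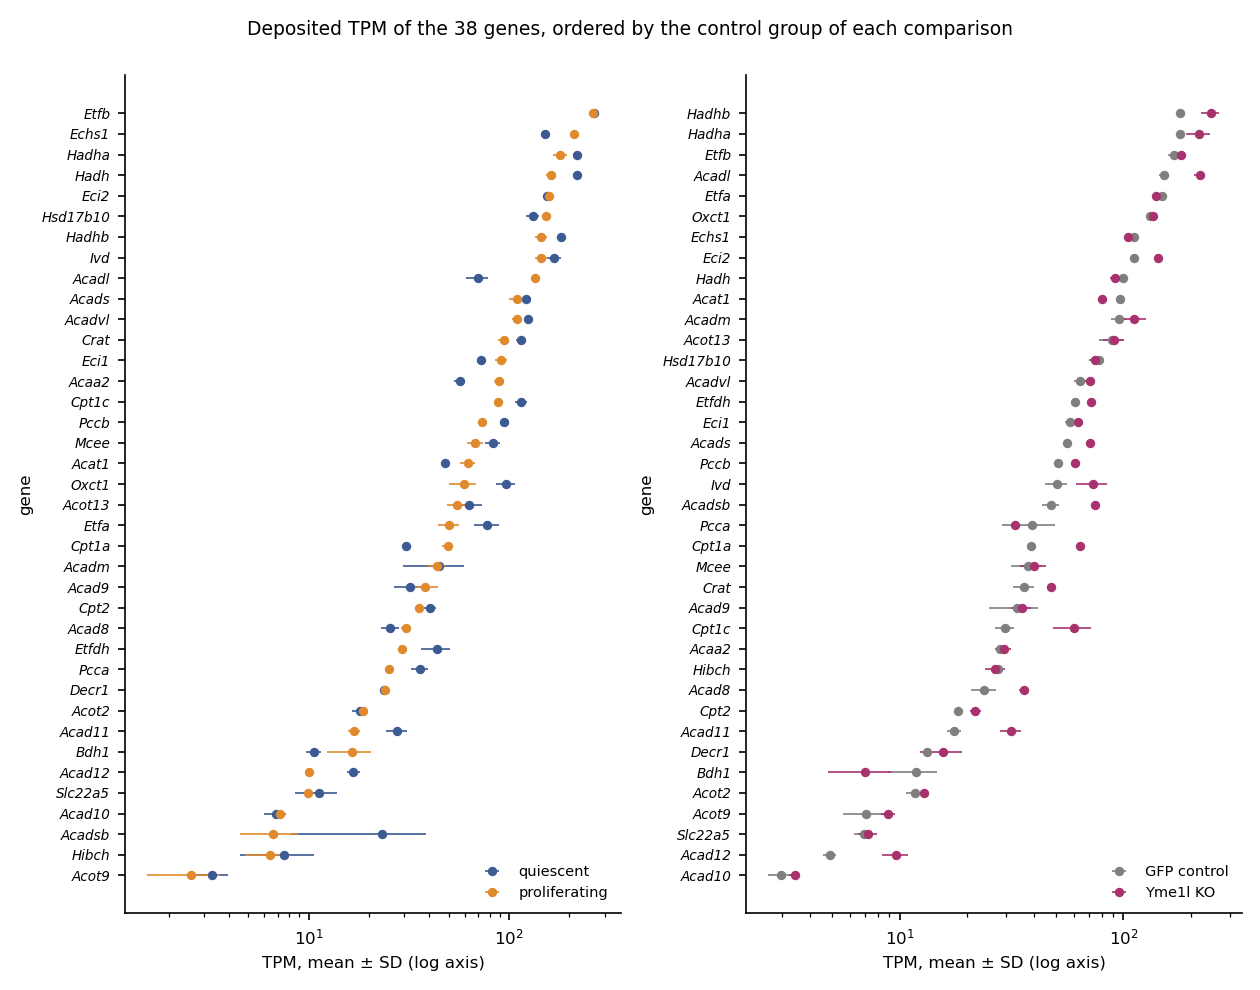
Deposited TPM (mean ± SD, logarithmic axis) of the 38 genes in quiescent and proliferating cells (left) and in GFP control and Yme1l KO cells (right), ordered by proliferating and by GFP control cells. Levels run from 2.6 TPM (Acot9) to 262 TPM (Etfb) in proliferating and from 2.96 TPM (Acad10) to 179 TPM (Hadhb) in GFP control cells.

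The neighbouring pathways were read from 5 further gene lists. Their counts stand beside shares over all tested genes of 29.9% higher and 35.5% lower in quiescence, and 25.4% and 26.2% in the KO. Of the 18 tested genes for fatty acid uptake, activation and malonyl-CoA control, 8 rose and 3 fell in quiescence. The largest rises were Acsl3, a long-chain acyl-CoA synthetase (log2 1.73, SE 0.21), and Acacb, the mitochondrial acetyl-CoA carboxylase whose product malonyl-CoA inhibits CPT1 (0.97, SE 0.30). The largest falls were the fatty acid transport proteins Slc27a1 (-0.94, SE 0.06) and Slc27a3 (-0.77, SE 0.20). In the KO 4 of 17 rose and 4 fell, led by Acot11 (0.93, SE 0.08) and Slc27a1 (0.70, SE 0.06) upward and by Acaca, the cytosolic acetyl-CoA carboxylase (-0.63, SE 0.06), and Acsl4 (-0.57, SE 0.09) downward. Slc27a1 thus had the same signs as Cpt1a in both comparisons.

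Peroxisomal β-oxidation, which shortens very long chains, had no called fall: 10 of 14 tested genes rose in quiescence (11 without quiescent replicate 2) and 8 of 13 in the KO. Over all tested genes 29.9% were higher in quiescence and 25.4% in the KO. Acox2, an oxidase acting on branched chains and bile acid precursors, is one of the 10 but passed the filter on low counts only through the quiescent group: it was at 1.29, 3.85, 2.28 and 3.49 CPM in quiescent and at 0.211, 0, 0 and 0 CPM in proliferating libraries. Ehhadh (1.17, SE 0.34) and the carnitine octanoyltransferase Crot (1.02, SE 0.07) rose most in the KO. Ehhadh is one of the 8 but passed the filter on low counts only through the KO group. It was at 0.875 ± 0.239 CPM in GFP control and 2 ± 0.231 CPM in KO libraries (SD, n = 3 each). The medians were 0.46 and 0.31, beside 0.19 and 0.21 for the 38 mitochondrial genes; the lists were not tested against each other.

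In branched-chain amino acid breakdown, 8 of 17 genes rose and 4 fell in quiescence (9 and 4 without quiescent replicate 2), and 7 rose and 3 fell in the KO. Bcat1, the cytosolic aminotransferase that opens the pathway, fell most in both (log2 -2.62, SE 0.11, and -1.11, SE 0.12). Mmab was the other large fall in the KO (-0.49, SE 0.09). Ppm1k, the phosphatase that activates the branched-chain ketoacid dehydrogenase, rose by 1.42 (SE 0.34) and the methylmalonate semialdehyde dehydrogenase Aldh6a1 by 1.05 (SE 0.13) in quiescence. Ppm1k was low there, at 3.09 ± 1.06 CPM in quiescent and 1.15 ± 0.278 CPM in proliferating libraries (SD, n = 4 each). It is among the 8 rises but passed the filter on low counts only through the quiescent group. In the KO Aldh6a1 (1.06, SE 0.13) and Bckdha, a subunit of that ketoacid dehydrogenase (0.69, SE 0.07), rose most.

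For ketone synthesis and transport, 5 of 10 genes could be tested in quiescence and 6 in the KO. The monocarboxylate transporter Slc16a1, which carries ketone bodies and lactate, rose in quiescence (log2 1.22, SE 0.06). In all 1 gene of that list rose and 1 fell there, and without quiescent replicate 2 there were 2 rises and no fall. In the KO Slc16a1 (-0.38, SE 0.08) and Aacs, the cytosolic acetoacetyl-CoA synthetase (-0.72, SE 0.07), fell and none rose. Of 9 tested transcriptional regulators, 4 rose and 3 fell in quiescence (5 and 3 without quiescent replicate 2). The rises were led by the coactivator Ppargc1a (2.13, SE 0.30) and Pdk4, a kinase that restrains pyruvate oxidation and is a PPAR target (2.11, SE 0.23). The falls were led by Ppargc1b (-1.92, SE 0.35) and Nrf1 (-0.86, SE 0.07). Ppargc1b passed the filter on low counts only through the proliferating group. It was at 0.592 ± 0.193 CPM in quiescent and 2.22 ± 0.236 CPM in proliferating libraries (SD, n = 4 each). In the KO 4 of 9 rose, with Ppargc1a (0.70, SE 0.07) and the nuclear receptor Esrra (0.57, SE 0.07) highest, and Tfam (-0.36, SE 0.08) and Nrf1 (-0.25, SE 0.08) fell.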

How the data were processed

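The authors deposited estimated counts per gene and per transcript, TPM and counts scaled from TPM, all in 2 tables quantified separately (genome build GRCm39, R 4.0.3 and DESeq2 1.30.1 per the submitters' processing notes; the deposited tables are named as output of salmon, whose version is not given in the sources used here). Their deposited table of comparisons gives log2 fold changes and adjusted p-values, whose signs were the same for 35 and 34 of the 38 genes. Columns were matched to labels through the sample identifiers. Counts were rounded to whole numbers, filtered with filterByExpr, scaled by TMM and tested with edgeR 4.0.16 (R 4.3.3; quasi-likelihood, Benjamini-Hochberg over all tested genes, threshold 0.05). CPM use TMM-scaled library sizes. The KO and quiescence effects were compared in a joint fit. The fits were also tested on simulated data.

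Alternatives were RLE size factors, library size alone, DESeq2 1.42.0, other filters, limma 3.58.1 on log2(TPM + 1), counts scaled from TPM, a replicate block, a single fit and leaving out each library. Removal of each library's GC trend (spline with 5 degrees of freedom) was chosen after seeing the data. The 38 genes and all lists were chosen with earlier results of these data known. All library values are given for the 6 largest called changes of each comparison, for genes called in opposite directions and for Cpt1a, Cpt2, Acadm, Hadha, Oxct1 and Bdh1; of each pathway list, at most the 2 largest rises and 2 largest falls are named, and some of these are not reported here. Depth limits low genes most: counts of the 38 genes ran from 14 to 2652 a library. Promoters are from RefSeq (32 of 38 genes matched); shared 31-base stretches were counted in the GENCODE vM21 transcripts.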

Additional observations from a re-analysis of the deposited data

Results flagged for a closer look

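In groups of 4 libraries, a library was singled out where its gap to the nearest other library, divided by the range of the group, was above Dixon's critical value for 4. Of 76 groups of quiescent or proliferating libraries examined over the 38 genes, 3 were above it, and chance gives about 1 in 20. Acadsb was at 36.8 CPM in quiescent replicate 2 and at 17.3 to 20.3 CPM in the other quiescent libraries. Ivd was at 168 CPM in the same library, below the 193 to 197 CPM of the others. Both gaps are in the library whose deviation across genes fell with GC content, and the part of GC content in them was not tested. Without that library Acadsb and Ivd were still called higher in quiescent cells. Acad10 was at 11.9 CPM in proliferating replicate 4, below the 15.4 to 15.7 CPM of the others.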

How the results depend on the processing

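No gene called in a main comparison changed sign under any setting tried. Calls were kept under every setting for 18 of 26 genes in quiescence, 15 of 18 in the KO and 10 of 13 for the difference. Single libraries left out gave 16 to 20 genes higher and 6 to 8 lower in quiescence, 15 to 17 and 1 to 2 in the KO, and 7 to 9 and 5 to 7 for the difference; Yme1l1 ranged from -2.39 to -2.31. In the KO, 2 genes were lower with library size alone, with limma on log2(TPM + 1) and without KO replicate 3. In quiescence 13 were lower with library size alone. For the difference, 13 were higher with library size alone and 8 lower with DESeq2; for the latter the cause was not tested.

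Same-numbered libraries correlated at -0.34 to 0.00 in their deviations. With so few libraries in a group, this cannot show whether same-numbered libraries shared an animal or culture. With the replicate block, 15 genes were higher and 7 lower in quiescence, 16 and 1 in the KO, and 6 and 4 for the difference.

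Values that changed sign belonged to genes not called in that comparison. In quiescence these were Acadm (0.00 with library size alone, -0.02 with limma on TPM), Acad10 (0.02 with RLE, 0.01 with DESeq2, 0.07 with the block, 0.08 with the GC trend removed), Decr1 (0.02 with RLE, 0.01 with DESeq2, 0.01 on counts scaled from TPM), Etfb (0.03 with RLE, 0.02 with DESeq2 and with limma on TPM, 0.05 on counts scaled from TPM, 0.00 in the joint fit, 0.08 with the GC trend removed) and Acot2 (0.03 with the GC trend removed). In the KO they were Slc22a5 (-0.03 with library size alone, -0.02 in the joint fit), Acad9 (0.09 with limma on TPM, 0.07 on counts scaled from TPM), Pcca (-0.21, -0.24), Acot13 (0.04, 0.04) and Bdh1 (-0.70, -0.76) under the same pair of settings. With single libraries left out, the quiescence values ran from -0.12 to 0.09 (Acad10), -0.11 to 0.04 (Eci2), -0.06 to 0.06 (Decr1), -0.04 to 0.10 (Etfb) and -0.10 to 0.04 (Acot2), and the KO values from -0.06 to 0.08 (Slc22a5) and -0.13 to 0.04 (Acot13).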
